A study of Mus musculus with 14 samples.

Results

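Transcription factors that set the identity of skeletal muscle cells were followed in quadriceps of mice with and without histone deacetylase 3 (HDAC3). The 9 genes were taken by name from the deposited table of 24354 genes: Pax7, the 4 myogenic bHLH factors Myf5, Myod1, Myog and Myf6, the MEF2 factors Mef2a, Mef2c and Mef2d, and Eya1. Eya1 encodes a cofactor of SIX-family factors, and other genes of the SIX-, EYA- and DACH-type families were looked at beside it. All 9 symbols were found. RNA-seq libraries came from resting male C57B/6 mice, 4 months old, kept on normal chow and a normal light and dark schedule. There were 3 libraries of the genotype HDAC3 Wild-type and 3 of HDAC3 Knock-out. All were taken at zeitgeber time 10 (ZT10, hours after lights on), late in the light phase. The labels state neither what drives the deletion, nor in which cells, nor whether each library is a separate mouse, so p-values measure a spread between libraries that may be technical. The ChIP-seq and nascent RNA libraries of the series were not analysed here.

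As background, the myogenic bHLH factors bind E-boxes in DNA together with ubiquitous E proteins and switch on muscle genes in sequence. Pax7 marks satellite cells, the stem cells of muscle, Myf5 and Myod1 mark committed myoblasts, Myog drives differentiation, and Myf6 is kept on in adult fibres. MEF2 factors act with them and are held in check by class IIa deacetylases, which form complexes with NCoR/SMRT and HDAC3. SIX-family proteins bind MEF3 sites and need EYA cofactors to activate genes, Myog among them.

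Levels are FPKM (fragments per kilobase of transcript, scaled to the size of the library), which are per length and so can be compared between genes. FPKM summed to between 454359 and 495099 per library. Depth relative to wild-type replicate 1, taken from the commonest ratio between libraries among genes under 0.3 FPKM, came to 0.831 and 1.02 in the other wild-type libraries and to 0.66, 0.832 and 0.674 in knockout replicates 1 to 3. Hdac3 was at 33.3, 31.0 and 23.7 FPKM in wild type and 5.51, 6.29 and 8.16 in the knockout, 4.41-fold lower (limma adjusted p = 0.00648, the test described below). The libraries were muscle by 7 fibre markers, Ckm and Acta1 among them, whose sum was 49300 to 58900 FPKM in wild type and 48780 to 60510 in the knockout. Of 3 cardiac markers Myl7 was listed at 0 in every library. The sum of the 3 was 0.41 to 0.64 FPKM in wild type and 0.24 to 0.79 in the knockout. Wild-type replicate 2 stood apart for 3 neutrophil markers, S100a8, S100a9 and Retnlg, at a sum of 476 FPKM against 3.39 to 9.43 in the other libraries. Values without it are given below for some of the results only.

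The factors differed widely in level. In wild type Mef2c was highest at 146 ± 17.6 FPKM (SD, n = 3 here and below), above 98.3% of all genes listed, followed by Myf6, Mef2a and Mef2d at 72.4 ± 12.2, 36.5 ± 0.878 and 18.1 ± 0.0683. Eya1 and Myod1 came next at 8.56 ± 1.47 and 6.82 ± 3.71, then Myog at 1.87 ± 0.907, Myf5 at 1.04 ± 0.222 and Pax7 at 0.227 ± 0.136. Libraries of neighbouring genes in this order overlapped only between Eya1 and Myod1 and between Myog and Myf5. In the knockout the order changed at one place, where Eya1 stood below Myod1 and Myog. Neighbours that overlapped there were Myog and Eya1, and Mef2a and Mef2d.

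**Figure D1:**
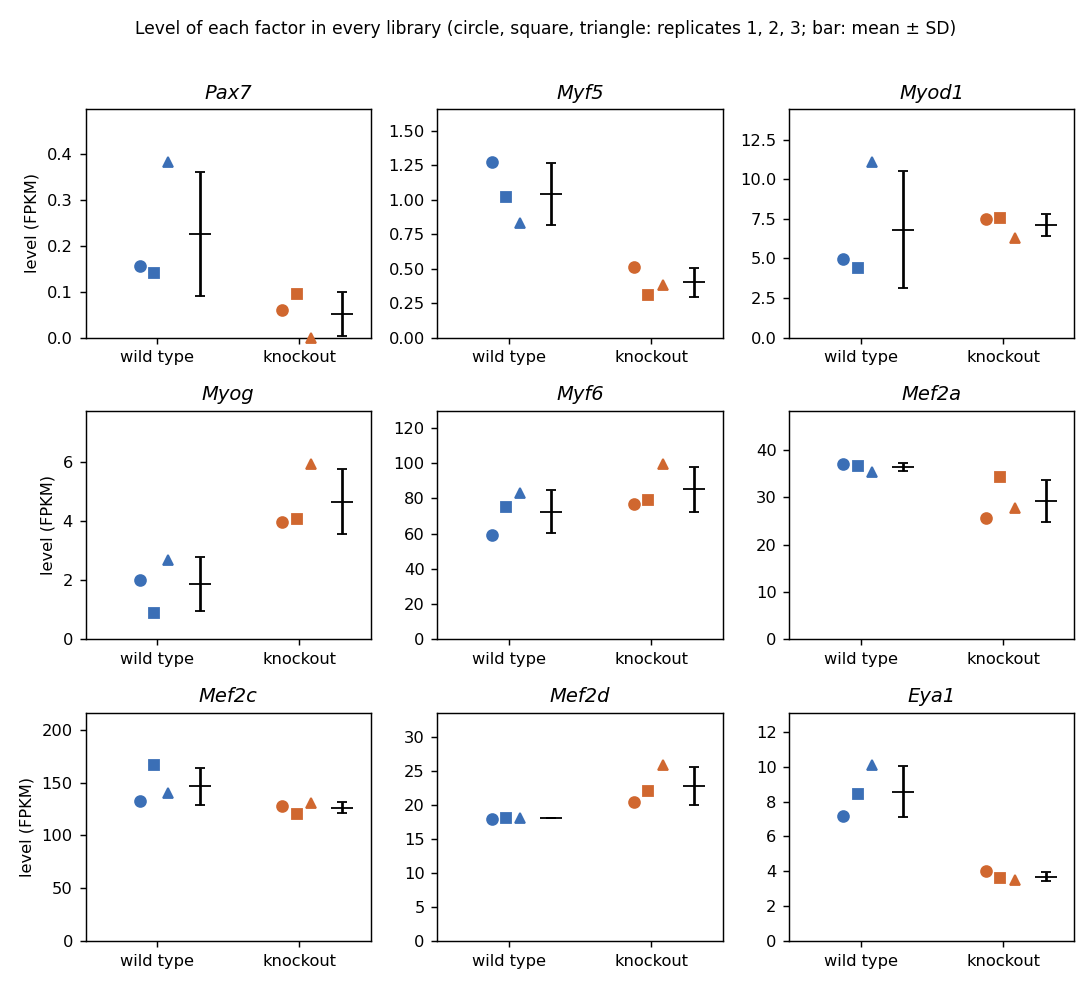
Level in FPKM (vertical axis, linear from 0, scaled per gene) of the 9 factors in the 3 wild-type (blue) and 3 knockout (orange) libraries, with mean ± SD beside the points. Myog and Mef2d lie higher, and Pax7, Myf5, Mef2a, Mef2c and Eya1 lower, in all knockout libraries than in any wild-type library, whereas Myod1 and Myf6 overlap.

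Eya1 fell without HDAC3 and was the 1 factor called by limma; Myog was called higher in the authors' deposited table alone. Limma was run on log2(FPKM + 1) of the 11877 genes with a mean of at least 0.5 FPKM over the 6 libraries, with Benjamini-Hochberg adjustment over all of them and a call at an adjusted p under 0.05. Of the 8 factors that passed this filter 1 was called as lower and none as higher, where 1.15% and 1.99% of all genes tested were called in those directions (3.13% in all). At an unadjusted p under 0.05 there were 3 lower (Eya1, Myf5, Mef2a) and 2 higher (Myog, Mef2d), and 18.7% of all genes tested lay under that limit. The authors' deposited table tested 7 factors and called 1 higher and 1 lower at a q-value under 0.05, against 5.9% and 4.94% of the genes tested there (10.8% in all). The libraries of the groups did not overlap for 6 of the 8 factors, 2 of them higher and 4 lower in the knockout, beside 13.2% and 11.8% of all genes tested (25.0% in all).

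Pax7, which marks satellite cells, was the lowest of the factors. Wild-type libraries gave 0.156, 0.141 and 0.383 FPKM, and knockout libraries 0.0592, 0.0940 and 0. All knockout libraries lay below all wild-type libraries, but the values rest on very few fragments. Multiplied by relative depth, the Pax7 values were whole multiples of 1 step within 0.01 of a step, at 4, 3 and 10 steps in wild type and 1, 2 and 0 in the knockout. If a step is 1 fragment, Pax7 was 4.30 times as frequent in wild type (95% exact interval 1.24 to 22.9, counting error only, over 17 and 3 fragments). The 0 in knockout replicate 3 allows up to 3 fragments, or 0.174 FPKM, which is within the wild-type range. Pax7 lay under the filter and has no test in the authors' deposited table; with no filter, limma gave -0.22 ± 0.09 (SE) on the log2(FPKM + 1) scale with an adjusted p of 0.329. In whole muscle, fewer cells of a type and less RNA per cell cannot be told apart.

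Myf5, a factor of committed myoblasts and satellite cells, was also lower in the knockout. The wild-type group had 1.27, 1.02 and 0.832 FPKM, and the knockout group 0.515, 0.306 and 0.378, again without overlap. Read the same way, these values stood for 15, 10 and 10 steps against 4, 3 and 3, a rate 2.66 times as high in wild type (95% exact interval 1.29 to 6.02, counting error only). The group means differed 2.61-fold, and the limma difference was -0.54 ± 0.15 (SE) with an adjusted p of 0.106, so Myf5 was not called. Over the alternatives in which Myf5 was tested, its adjusted p was 0.0826 to 0.255. The authors' deposited table has no test for it.

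Myod1, the other myoblast factor, showed no shift beyond the spread of the libraries. Wild-type libraries gave 4.94, 4.43 and 11.1 FPKM and knockout libraries 7.48, 7.57 and 6.32. Wild-type replicate 3 was the highest of all 6 and the other wild-type libraries the lowest, so the knockout lay inside the wild-type range. Counted in steps as above, its rate was 1.02 times as high in the knockout (95% exact interval 0.827 to 1.26, counting error only). The limma difference was 0.15 (95% interval -0.53 to 0.83; adjusted p = 0.841), and it became -0.07 without wild-type replicate 2 and 0.51 without wild-type replicate 3.

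Myog, the bHLH factor of differentiation, was higher in all knockout libraries. They gave 3.99, 4.07 and 5.96 FPKM, against 2.01, 0.906 and 2.70 in wild type. Counted in the same steps these were 21, 27 and 32 against 16, 6 and 22, so the lowest wild-type value, that of replicate 2, rests on 6 steps. The rate was 2.39 times as high in the knockout (95% exact interval 1.64 to 3.54, counting error only). The group means differed 2.50-fold (log2 ratio 1.32 ± 0.45, SE), with a q-value of 0.00794 in the authors' deposited table. The limma difference was 1.02 ± 0.26 (SE; 95% interval 0.41 to 1.63) with an adjusted p of 0.0922, and over all alternatives the adjusted p ran from 0.0768 to 0.254. Without wild-type replicate 2, the library with neutrophil markers, the difference was 0.75 (adjusted p = 0.211). Set against Myod1 in the same library, Myog was at 0.406, 0.204 and 0.244 times its level in wild type and at 0.533, 0.538 and 0.942 times in the knockout. The ratios did not overlap (difference 1.25 on the log2 scale, exact permutation test, two-sided, p = 0.1, the smallest that 3 against 3 libraries allow).

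The Myog promoter is known to be driven by bHLH, MEF2 and SIX-family factors. The stretches upstream of Myog and Myf5 are shown because their group means lay apart in opposite directions, though limma called neither gene. They are the 250 bases before the RefSeq transcript start, on the gene's own strand, 5′ to 3′, in build GRCm38.p6: chr1:134289754-134290003 (plus strand) for Myog and chr10:107486135-107486384 (minus strand) for Myf5. Capitals mark matches to the E-box (CANNTG), the MEF3 site (TCAGGTT), the MEF2 core (TA, then 4 bases that are each A or T, then TA, a pattern that some TATA boxes also match) and the nuclear receptor half-site (AGGTCA), searched on both strands.
Myog: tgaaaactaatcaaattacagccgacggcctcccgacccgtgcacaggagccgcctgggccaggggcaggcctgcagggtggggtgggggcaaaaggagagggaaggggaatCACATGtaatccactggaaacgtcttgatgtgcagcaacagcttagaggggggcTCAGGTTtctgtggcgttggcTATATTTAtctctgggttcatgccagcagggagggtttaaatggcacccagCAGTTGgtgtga
Myf5: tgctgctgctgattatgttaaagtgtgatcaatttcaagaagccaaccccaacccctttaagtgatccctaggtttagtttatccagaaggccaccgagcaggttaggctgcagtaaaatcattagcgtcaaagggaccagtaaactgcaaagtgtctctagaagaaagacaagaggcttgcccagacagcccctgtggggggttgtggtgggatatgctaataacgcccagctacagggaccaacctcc
In the Myog stretch the search found E-boxes 138 and 12 bases before the start, a MEF3 site 84 bases and a MEF2 core 63 bases before it. None of these patterns was in the Myf5 stretch. Of 32851 RefSeq promoters of this length 66.2% held an E-box, 8.56% a MEF2 core, 3.49% a MEF3 site and 14.0% a nuclear receptor half-site. Promoters were at hand for 6 of the 9 factors. One of the 3 Mef2c promoters held 2 E-boxes, a MEF2 core and a MEF3 site, and the other two held half-sites, with an E-box in one of them. A match is only a description of the letters, and its part in any difference between the groups was not tested.

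**Figure D2:**
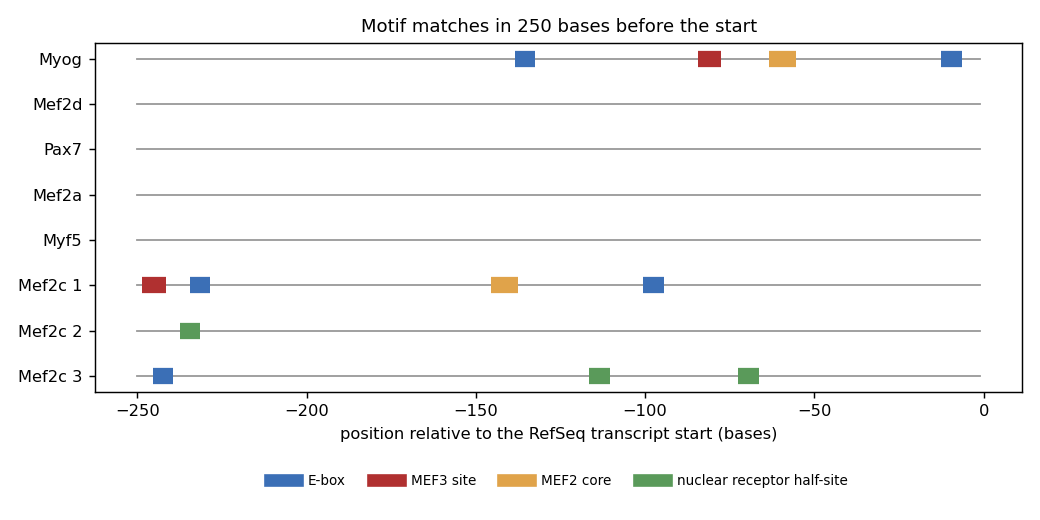
Matches to the 4 patterns in the 250 bases before each RefSeq start of 6 of the factors (horizontal axis, bases from the start; Mef2c has 3 starts). Myog and the first Mef2c start carry E-boxes, a MEF2 core and a MEF3 site, and no match stands in the windows of Mef2d, Pax7, Mef2a and Myf5.

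Myf6, the bHLH factor of adult fibres, made up most of the family in both groups. The wild-type group had 59.1, 75.0 and 83.1 FPKM and the knockout group 76.8, 78.8 and 99.6, with overlap. Its limma difference was 0.23 (95% interval -0.13 to 0.60, adjusted p = 0.489). Counted in steps as above, its rate was 1.17 times as high in the knockout (95% exact interval 1.08 to 1.27, counting error only). That interval leaves out equal rates although the libraries overlapped, as such intervals do not hold the spread between libraries. Myf6 held 88.3% ± 3.62 of the summed FPKM of the 4 factors in wild type and 87.4% ± 1.20 in the knockout. The sum was therefore close to Myf6 itself, at 82.2 ± 15.2 and 97.3 ± 13.0 FPKM (exact permutation test, two-sided, p = 0.3). Its difference of 15.1 FPKM dropped to 7.73 when wild-type replicate 1 was left out and to 7.62 when knockout replicate 3 was, and was 22.9 without wild-type replicate 3. Myog and Myf5 are minor members of this sum in both groups.

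None of the MEF2 genes was called by either test. Each was without overlap between the groups, as were 25.0% of all genes tested. Mef2d lay higher in the knockout, and Mef2a and Mef2c lower. Mef2d, the least abundant, was at 18.0, 18.1 and 18.1 FPKM in wild type and 20.4, 22.1 and 25.8 in the knockout. The former were almost equal and all knockout libraries lay above them (limma difference 0.31 ± 0.11 SE, adjusted p = 0.186; q = 0.175 in the authors' deposited table). Mef2a went the other way, with 37.1, 36.8 and 35.5 FPKM in wild type and 25.6, 34.3 and 27.8 in the knockout. Its limma difference was -0.32 ± 0.12 (SE) with an adjusted p of 0.220, with q = 0.164 in the authors' deposited table. Mef2c gave 133, 166 and 140 FPKM against 128, 121 and 130, a limma difference of -0.20 (95% interval -0.46 to 0.05; adjusted p = 0.379). Without wild-type replicate 2, its highest library, the Mef2c difference was -0.11 (adjusted p = 0.735), whereas Mef2d and Mef2a were then at 0.31 and -0.31.

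Summed over these 3 genes, MEF2 transcripts were at 188, 221 and 193 FPKM in wild type and 174, 177 and 184 in the knockout. The groups did not overlap (exact permutation test, two-sided, p = 0.1, the smallest possible), and the difference of -22.5 FPKM was -12.3 without wild-type replicate 2. Within the sum, the share of Mef2d was 9.56%, 8.19% and 9.35% in wild type and 11.7%, 12.5% and 14.0% in the knockout (p = 0.1 by the same exact test). The shares of Mef2c, 72.7% ± 2.28 and 70.8% ± 2.71, and of Mef2a, 18.2% ± 1.57 and 16.4% ± 2.59, overlapped (exact p = 0.5 and 0.3). Mef2b, the remaining MEF2 gene, was listed at 0 in all libraries other than knockout replicate 3.

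Eya1, the cofactor of SIX-family proteins, fell 2.31-fold without HDAC3. Wild-type libraries gave 7.15, 8.45 and 10.1 FPKM and knockout libraries 3.99, 3.61 and 3.49. The knockout libraries were close to one another, and all lay far below the lowest wild-type library. The limma difference was -1.02 ± 0.14 (SE) with an adjusted p of 0.0191, and the authors' deposited q-value was 0.00119. The difference stayed between -1.12 and -0.90 when 1 library was left out. The adjusted p then rose to 0.0952 without wild-type replicate 2 and to 0.0633, 0.0572 and 0.0814 without knockout replicates 1, 2 and 3, so that the call was lost in each of these 4 fits.

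Among the 11 relatives in the SIX-, EYA- and DACH-type gene families 7 passed the filter and limma called none. At an unadjusted p under 0.05 there were 1 higher and 1 lower, a limit that 18.7% of all genes tested passed. The authors' deposited table tested 5 and called 1 in each direction, against 5.9% and 4.94% of all its tested genes. Eya4, another EYA cofactor, gave 14.4, 21.8 and 17.1 FPKM against 33.4, 23.2 and 22.7, without overlap and in the opposite direction to Eya1 (q = 0.0046 in the authors' deposited table; limma adjusted p = 0.192). Six4 was at 8.53 ± 0.290 and 9.94 ± 1.71 FPKM and overlapped. As a description chosen after these values were seen, Eya1 held 27.3%, 24.4% and 32.7% of the summed FPKM of Eya1 to Eya4 in wild type and 9.32%, 11.7% and 11.0% in the knockout. The sum itself overlapped, at 30.6 ± 4.23 and 35.2 ± 6.65 FPKM.

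**Figure D3:**
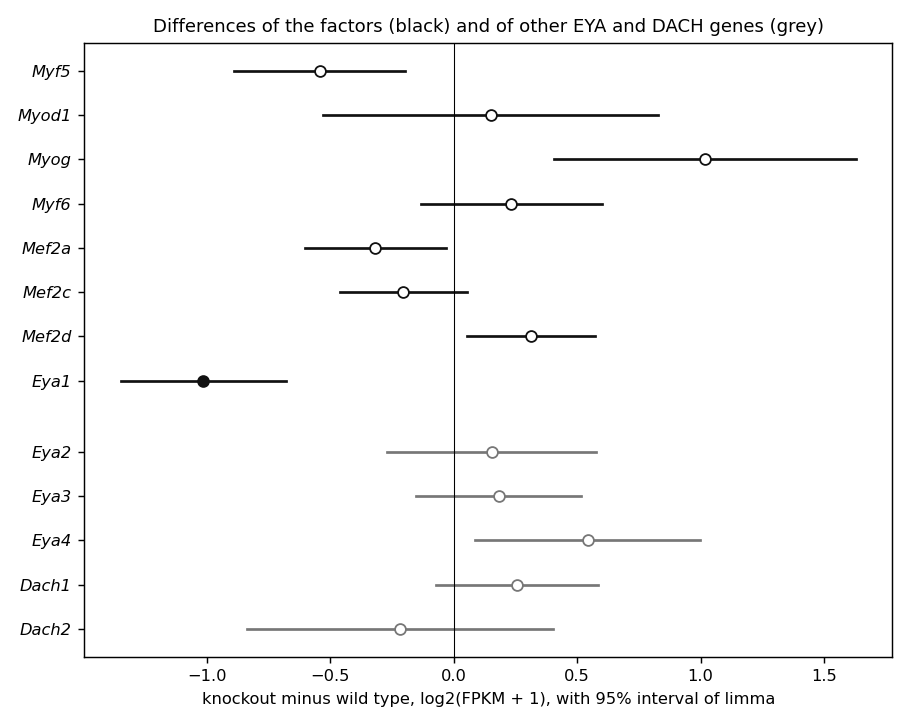
Knockout minus wild-type difference on the log2(FPKM + 1) scale with the 95% interval of limma, for the 8 factors that passed the filter (black) and 5 EYA and DACH relatives (grey); filled points have an adjusted p under 0.05. Eya1 at -1.02 is the only filled point, and Eya4 lies on the opposite side of 0.

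**Figure D4:**
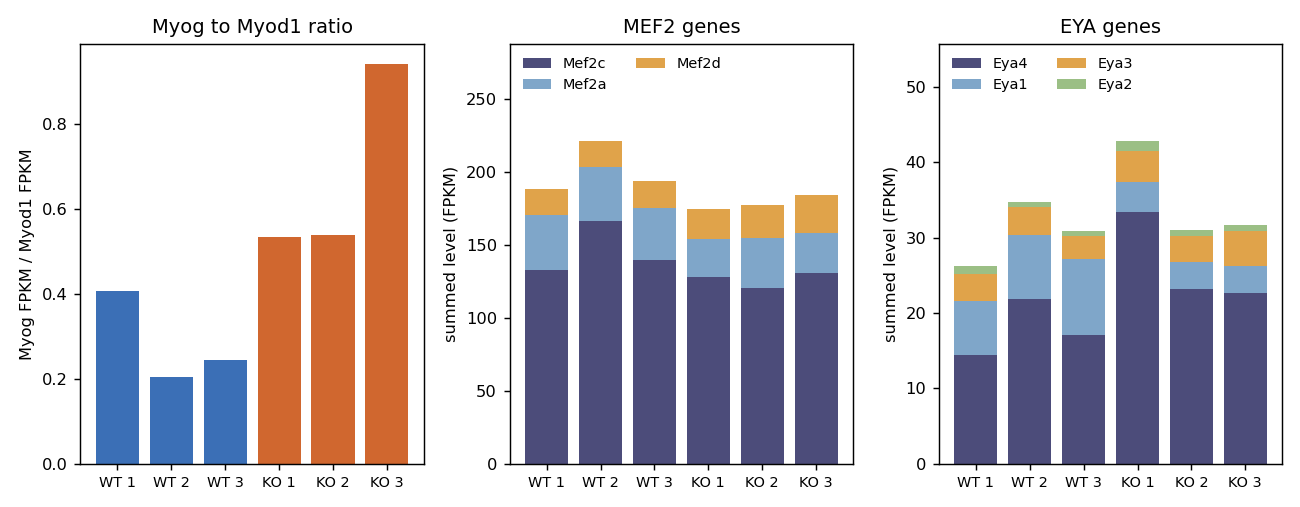
Left, ratio of Myog to Myod1 FPKM in each library; middle and right, FPKM of the MEF2 and EYA genes stacked per library (WT, wild type; KO, knockout). The Myog ratio is 0.204 to 0.406 in wild type and 0.533 to 0.942 in the knockout; in the right-hand stacks the Eya1 part is smaller and the Eya4 part larger in every knockout library.

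Genes of proteins that pair with or block bHLH factors were not called by limma. Of 18 E proteins, ID proteins and other partners 15 passed the filter. At an unadjusted p under 0.05 none was higher and 3 were lower, a limit that 18.7% of all genes tested passed. The median difference of the list was -0.12, beside -0.01 over all genes tested. The authors' deposited table tested 11 and called 1, where 10.8% of all its tested genes were called. The gene called was Mdfic, an inhibitor of bHLH factors, at 3.88 ± 0.557 FPKM in wild type and 2.28 ± 0.0325 in the knockout (q = 0.0156, limma adjusted p = 0.0716).

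Of 32 regulators and cofactors of MEF2 30 passed the filter, and limma called 1 as higher and none as lower (2 and 8 at an unadjusted p under 0.05). Over all genes tested 3.13% were called and 18.7% were under that unadjusted limit. The median difference of the list was -0.14. Ppp3ca, a catalytic subunit of the phosphatase calcineurin, rose 1.72-fold from 46.9 ± 1.93 to 80.7 ± 3.74 FPKM (limma adjusted p = 0.0130). It was called in 3 of the 6 fits that left out 1 library, with an adjusted p of 0.0334 to 0.0880. Without wild-type replicate 2 its difference was 0.74 and the call was lost. The authors' deposited table tested 25 genes of the list. Ppp3ca was the single one called higher there and 4 were called lower, against 5.9% and 4.94% of all its tested genes. Among the lower were Smarcd3, a chromatin remodelling subunit, at 58.1 ± 6.53 and 38.4 ± 8.93 FPKM (limma adjusted p = 0.114), the acetyltransferase gene Ep300 at 6.75 ± 0.511 and 4.34 ± 0.142 (0.0520) and Srf, serum response factor, at 6.96 to 12.9 and 5.52 to 7.35 (0.220). Class IIa deacetylases were not called by limma: Hdac4 differed by 0.01, Hdac5 by -0.05, Hdac7 by 0.00 and Hdac9 by 0.26.

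Beside Pax7 and Myf5, other satellite cell and myoblast markers were looked at. Of 16 such genes 12 passed the filter, 10 lay lower and 2 higher, with a median of -0.22, while 6050 of all 11877 genes tested lay lower. Limma called none of them (2 higher and 5 lower at an unadjusted p under 0.05, a limit that 18.7% of all genes passed). The authors' deposited table tested 11 and called both of those that lay higher and 2 that lay lower, beside 10.8% of all its tested genes. Cdh15, M-cadherin, was at 2.24, 3.49 and 4.62 FPKM in wild type and 1.65, 2.18 and 1.34 in the knockout (limma adjusted p = 0.162). Met, the receptor of hepatocyte growth factor, was at 6.22 ± 0.0669 and 4.22 ± 0.237 (0.0678). Sdc4, a syndecan also made by other cells, went the other way, at 12.8, 15.4 and 17.0 FPKM and 31.8, 16.7 and 30.1 (0.166; 0.0430 without knockout replicate 2). No marker of fibroblast, endothelial, smooth muscle, macrophage, neutrophil, adipocyte or Schwann cells that passed the filter was called by limma. The summed fibroblast markers were at 316 to 499 FPKM in wild type and 240 to 350 in the knockout, and endothelial markers at 50.4 to 59.8 and 56.0 to 57.5. The part of cell composition in the lower Pax7 and Myf5 was not tested.

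Genes described as bHLH or MEF2 targets in muscle differed in both directions. Of 39 listed 35 passed the filter, 5 rose and 4 fell by limma, beside 1.99% and 1.15% of all genes tested, and the median was 0.14. The list was chosen with earlier results of these data known, so its counts cannot show that targets differ more often than other genes. Cdkn1a, which encodes p21 and is switched on as myoblasts leave the cell cycle, rose 11.4-fold from 1.17 ± 0.360 to 13.3 ± 3.84 FPKM (limma adjusted p = 0.00499) and was called in all 6 fits that left out 1 library. Mybph, a myosin-binding protein, rose 8.55-fold from 4.92 ± 4.61 FPKM to a wide range of 24.1 to 74.6. Its fold was 18.6 without wild-type replicate 1, which was at 10.2 FPKM, and 5.24 without knockout replicate 2, the highest, and it was called in 1 of the 6 fits that left out 1 library. Also risen were Des, the intermediate filament desmin, 1.92-fold from 499 ± 111 to 960 ± 120 FPKM, and Chrne, an adult acetylcholine receptor subunit, 1.86-fold from 4.59 ± 0.854 to 8.52 ± 1.25. Musk, a receptor kinase of the neuromuscular junction, fell 1.98-fold from 6.50 ± 0.578 to 3.29 ± 0.634. The limma adjusted p of Des, Chrne and Musk was 0.0338, 0.0466 and 0.0314. With 1 library left out, Des was called in 1 of the 6 fits, and Chrne and Musk in 0. The other called genes, outside the naming rule and chosen after their values were seen, were Xirp2, which rose, and Chrnb1, Cav3 and Stac3, which fell. Xirp2 was not called in the authors' deposited table (q = 0.0515). With any 1 library left out the counts dropped to 1 or 2 risen and 0 or 1 fallen (1 and 0 without wild-type replicate 2). The authors' deposited table called 7 of 33 tested targets higher and 6 lower, where the shares of all its tested genes were 5.9% and 4.94%. Of 5 called there but not by limma, the 3 with the lowest q-value were Trim63, a ubiquitin ligase of muscle wasting, which was 1.73 times as high in the knockout, and Srpk3, a kinase, and Myl1, a fast myosin light chain, which were 1.57 and 1.56 times as high in wild type (limma adjusted p of 0.0663, 0.184 and 0.0926). The others, outside the naming rule, were Chrna1, 1.66 times as high in the knockout (limma adjusted p = 0.132), and Xirp1 (0.862). Chrng and Tmem8c, which encodes the fusion protein myomaker, lay under the filter. Chrng was at or below 0.138 FPKM in every library. Tmem8c was at 0.159, 0 and 0 FPKM in wild type and at 0.723, 0 and 0.472 in the knockout, with overlap.

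**Figure D5:**
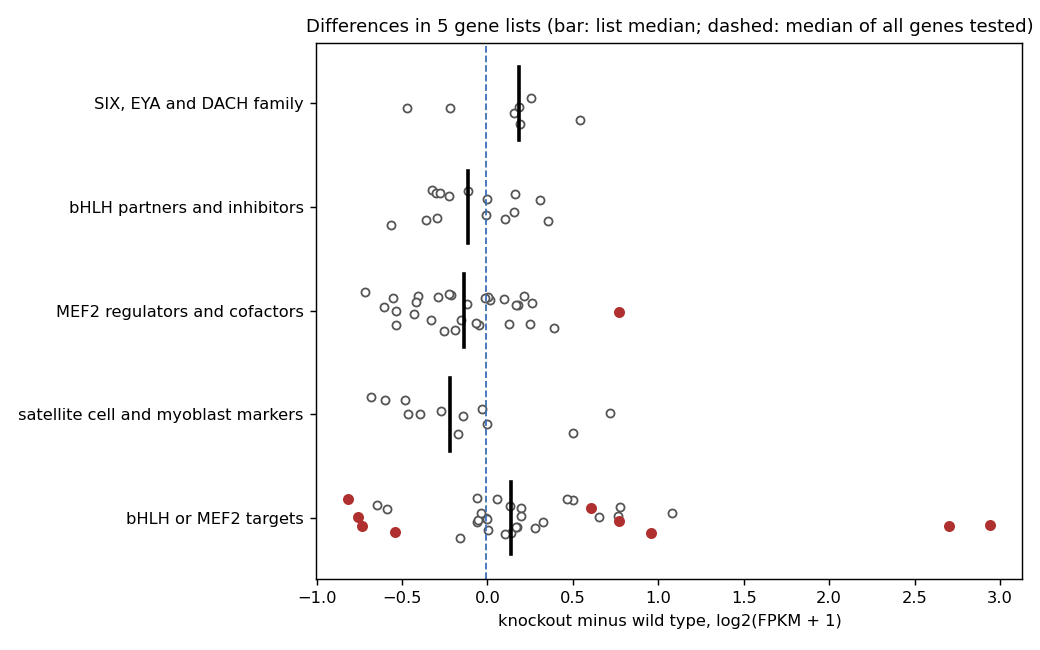
Knockout minus wild-type difference on the log2(FPKM + 1) scale for each gene of 5 lists that passed the filter (red, adjusted p of limma under 0.05; open, not called; vertical spread within a row is only for display). List medians run from -0.22 to 0.18 beside -0.01 for all genes tested, and the called genes sit in the rows of targets and of MEF2 regulators.

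For Eya1, called by limma, and Myog, called in the authors' table, the genes with the most similar pattern over the 6 libraries were found by Pearson's correlation of log2(FPKM + 1) among the genes tested. The correlation follows the shape and not the size of a difference, and the libraries form 2 groups. Each r was picked as among the highest of all genes tested, so high values come from the choice itself. Myog was most like Rngtt (r = 0.9995), at 3.75, 3.10 and 4.10 FPKM in wild type and 4.64, 4.60 and 5.20 in the knockout. Rhbdd2 (0.988) and Med28 (0.985) came next. Limma called none of them (adjusted p of 0.242, 0.375 and 0.537). Eya1 was most like Bves (0.997), a membrane protein of striated muscle, then Stab2, a scavenger receptor (0.992), and Ep300 (0.991). Stab2 was at 2.35, 2.87 and 3.02 FPKM in wild type and 1.06, 0.844 and 0.714 in the knockout. It was called by limma (adjusted p = 0.0191), and Bves and Ep300 were not (0.0779 and 0.0520).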

How the data were processed

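Gene expression was measured by RNA-seq in 3 wild-type and 3 knockout libraries, grouped by their titles. The authors computed FPKM per gene and library; the submitters' processing notes name TopHat2, Cuffdiff and build mm9. For versions, annotation, strandedness and scaling nothing was given in the sources used. Each gene's deposited p-value and q-value are also the authors'; 9204 genes with a p-value under 1 were taken as tested there. Read totals are not in the table, so depth is relative, and Poisson and binomial intervals cover counting error only.

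Here limma 3.58.1 (R 4.3.3, mean-variance trend, two-sided) was run on log2(FPKM + 1), which understates the change of low genes, for genes with a mean of at least 0.5 FPKM over all 6 libraries. The script was tested on simulated data of 11877 genes. It called 4%, 30%, 62% and 70% of changes of 1.5-, 2-, 3- and 4-fold, with 3 false calls. A gene that was not called may therefore still have changed. Fold changes are ratios of group means with delta-method errors. Single values were compared by an exact permutation test (scipy 1.17.1). No 2 libraries held identical values. Differences are knockout minus wild type.

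The factors and the 5 gene lists were chosen with earlier results of these data known. Named were all 9 factors, and from each list the genes called by limma (the 5 largest where more) and up to 3 called only in the authors' table, by lowest q-value; 1 gene under this rule is not reported here. Alternatives changed the pseudocount (0.5, 0.1), filter, scaling, variance model, pairing and libraries. HDAC3 peaks are placed on mm9, for which no gene positions were used here, so they were left out. Promoter sequences are from RefSeq, GRCm38.p6.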

Additional observations from a re-analysis of the deposited data

How the results depend on the processing

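Of the alternative fits of single factors 112 kept direction and side of the threshold, 5 lost a call and 2 reversed; both of these were of Myod1, at -0.000193 without wild-type replicate 1 and -0.0652 without wild-type replicate 2 (up to 0.51 over the libraries left out). Eya1 lost its call under the replicate block (-1.02, adjusted p = 0.0698) and in 4 of the 6 fits that left out 1 library (adjusted p of 0.0319 to 0.0952 over the 6); no other factor gained a call. Labels give both groups the same replicate numbers. Deviations of same-numbered libraries correlated at 0.0365, 0.0443 and 0.0482, so the numbers were not taken as pairs, although each library correlated best with its own number. With the replicate block limma called 22 genes higher and 13 lower in place of 236 and 136, 0 factors, 0 regulators of MEF2, and 1 target higher and 0 lower. With no filter 152 genes were higher, and without the variance trend 154. Targets called were then 1 higher and 2 lower with no filter, and 2 and 2 without the trend. With a pseudocount of 0.1, a filter of 1 FPKM or the authors' tested genes, 1 regulator of MEF2 was lower. By the authors' q-values 331 genes were higher and 274 lower under 0.01, and limma in its place gave 236 and 136, with 0 factors higher. Leaving out 1 library gave 13 to 131 genes higher and 6 to 78 lower (lowest without wild-type replicate 2), 0 or 1 factors lower, 0 or 1 regulators and 0 or 1 satellite cell markers higher, and 1 to 2 targets higher and 0 to 1 lower; fewer libraries were tested there. The summed bHLH difference ran from 7.62 to 22.9 FPKM, the MEF2 sum from -28.8 to -12.3, and the Myog to Myod1 difference from 0.97 to 1.54 (log2). Pax7 and Myf5 rest on 3 and 10 steps in the knockout. The cause of a lost call was not tested.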
